A study of Drosophila melanogaster with 3 samples.

Results

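The aminoacyl-tRNA synthetase genes described here were the 33 protein-coding genes of 13968 in the Ensembl BDGP6 annotation whose symbol consists of 1 or 2 three-letter amino acid names followed by RS, with or without -m. The suffix -m marks the enzymes of the mitochondrion, so that 18 genes were counted as cytosolic and 15 as mitochondrial. This split follows the symbol alone, so a gene without -m was counted as cytosolic whether or not its enzyme also serves the mitochondrion. The rule leaves out alpha-PheRS and beta-PheRS, the genes for the subunits of the cytosolic phenylalanine enzyme, because of the Greek letter in their symbols. Chromatin came from embryos of 0 to 24 h, males and females pooled, of a transgenic Drosophila melanogaster line that stably expressed the protein CG10274 with GFP at its C-terminus. The 3 samples were biological replicates of this 1 group, precipitated with an antibody against GFP, and the labels name neither an untreated group nor a second line or stage. Whole embryos were used, so the lists do not separate cell types, and the labels do not say whether the line also makes CG10274 without GFP. The authors deposited a list of 30000 scored entries for each replicate, a list of 30000 called on the pooled replicates, and a list of 2988 peaks kept after a test of reproducibility (IDR), called the combined list here.

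Aminoacyl-tRNA synthetases join each amino acid to its tRNAs and so set the genetic code at the step before the ribosome. The cytosolic enzymes serve the translation of nuclear messages. The mitochondrial enzymes are also encoded in the nucleus, are imported, and serve the few proteins translated inside the organelle. Glutamate and proline are charged in the fly cytosol by a fused enzyme, GluProRS.

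A gene was counted as having a peak where a summit, the highest point of a peak, lay within 500 bp of any of its transcription start sites (TSSs). Of the 33 synthetase genes 6 had a summit of the combined list there, which is 18.2% (95% Wilson interval 8.61 to 34.4%), against a background of 11.1% of all protein-coding genes. They were LeuRS-m among the mitochondrial genes and SerRS, GluProRS, AspRS, ThrRS and IleRS among the cytosolic ones. The same 6 genes, and no other member, had a summit within 500 bp in the list of every replicate. Most combined peaks share this: 2292 of all 2988 overlapped an entry in every replicate list. ThrRS had the most distant summit of those inside the window, at 239 bp, and the nearest combined summit to a start site of any remaining member lay 2560 bp away, at AlaRS.

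The DNA under these summits is shown for 5 of the 6 genes, because it is where the protein was enriched and because the genes differ in base composition and in the short words they hold. All sequences are from the RefSeq Release 6 genome (dm6), read 5′ to 3′ on the strand of the synthetase gene, with the base of the start site counted as 0. At LeuRS-m the capitals mark the E-box words CACGTG and CAGCTG. In the other sequences the capitals mark the 7 bases centred on the combined summit. The summit of LeuRS-m lay in its 5′ untranslated region, from which 30 bases (chr3L:4825858-4825887, plus strand, positions 5 to 34) are given, followed by the 100 bases before the start site (chr3L:4825753-4825852, plus strand). SerRS is shown by 30 bases from -13 to 16 (chr2L:3037387-3037416, minus strand). The bases within 50 bp of the summit are given for GluProRS, from -154 to -54 (chr3R:23958445-23958545, minus strand), for ThrRS, from -289 to -189 (chr2L:12103462-12103562, plus strand), and for IleRS, from -183 to -83 (chr3L:22288482-22288582, plus strand).
LeuRS-m, summit: agaaaCAGCTGttcgattgtagagtgcagt
LeuRS-m, upstream: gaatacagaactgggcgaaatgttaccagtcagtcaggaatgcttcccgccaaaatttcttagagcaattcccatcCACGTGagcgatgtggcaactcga
SerRS: aagggtatttcTTATGGGaaataactaaac
GluProRS: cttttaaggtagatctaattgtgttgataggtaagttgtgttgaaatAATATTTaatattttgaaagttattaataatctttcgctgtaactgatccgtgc
ThrRS: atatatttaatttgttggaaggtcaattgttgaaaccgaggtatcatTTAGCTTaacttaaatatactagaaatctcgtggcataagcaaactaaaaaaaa
IleRS: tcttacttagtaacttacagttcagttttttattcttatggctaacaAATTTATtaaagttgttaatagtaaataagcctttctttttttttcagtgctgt

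LeuRS-m, the enzyme that charges mitochondrial tRNA-Leu, stood apart from the other members in every replicate. Its combined peak (chr3L:4825624-4826128, dm6) was 505 bp wide and had the authors' score of 1602.46, rank 82 of 2988. Only 54 of the 1547 protein-coding genes with a combined summit had a higher-scoring best summit, and the median rank of the best summit over those genes was 1264. The peak scored 816 in replicate 1, 392 in replicate 2 and 421 in replicate 3, which was rank 94, 88 and 68 of each list. Scores were not on a common scale between lists, so each was divided by the replicate's median score over the 2292 combined peaks found in all 3 replicate lists. On this relative scale, on which 1 is the median shared peak, LeuRS-m had 7.25, 5.24 and 7.48, with a mean of 6.65 ± 1.23 (SD, n = 3). Its lowest replicate was thus above every value of the other 5 genes, which ranged from 0.498 to 1.44. The 3 replicate summits lay at 23, 13 and 21 bp from the start site, a spread of 5.29 bp (SD) around a mean of 19 bp.

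The 5 cytosolic genes had relative scores from 0.498 to 1.44, where 1 is the level of the median shared peak. Their means lay below 1 on this scale, but where scores were divided by the median of each replicate's own top peaks, 4 of them lay above 1 (SerRS 1.05, GluProRS 1.14, AspRS 1.11 and ThrRS 1.04) and IleRS at 0.735. The side of 1 therefore depends on the scaling for all of them but IleRS. SerRS, which charges tRNA-Ser and also the selenocysteine tRNA where that is used, had a combined peak at chr2L:3037200-3037603 with rank 1177 and a score of 249. Its relative scores were 0.970, 0.821 and 0.951 in replicates 1, 2 and 3 (mean 0.914 ± 0.0806, n = 3). SerRS had the smallest spread of the 5, and its peak was among the 2988 highest-scoring entries (the top peaks) of all 3 replicates.

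GluProRS had its peak at chr3R:23958293-23958696, with rank 1334 and a score of 229. The relative scores were 0.681, 1.19 and 1.09 (mean 0.990 ± 0.273, n = 3), lowest in replicate 1, and the peak was among the top peaks of all 3 replicates. AspRS, which charges tRNA-Asp, had a peak at chr2R:12879960-12880363, with rank 1448 and a score of 216. Its relative scores of 0.874, 0.533 and 1.44 (mean 0.948 ± 0.456, n = 3) had the largest SD of the 5 cytosolic genes. Replicate 2 was lowest and outside the top peaks at rank 3091. The replicate 1 value is that of the highest-scoring overlapping entry, with its summit at -259 bp. The entry with the nearest summit had 0.514 there, which gave a mean of 0.827 ± 0.527 (n = 3).

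ThrRS, which charges tRNA-Thr, had a peak at chr2L:12103310-12103713, with rank 1556 and a score of 205. The relative scores were 0.590, 1.00 and 1.11 (mean 0.899 ± 0.273, n = 3), and in replicate 1 the peak had rank 3284 and fell outside the top peaks. IleRS, which charges tRNA-Ile, had the weakest of the 6 peaks, at chr3L:22288330-22288733 with rank 1966 and a score of 175. Its relative scores were 0.788, 0.663 and 0.498 (mean 0.650 ± 0.145, n = 3), and replicate 3 placed it at rank 3965, outside the top peaks. The ranges of SerRS, GluProRS, AspRS, ThrRS and IleRS overlapped, apart from that of SerRS, which lay wholly above that of IleRS. Ordering by mean rank in the replicate lists kept LeuRS-m first and IleRS last and moved SerRS to place 2, GluProRS to 3 and AspRS to 4.

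**Figure D1:**
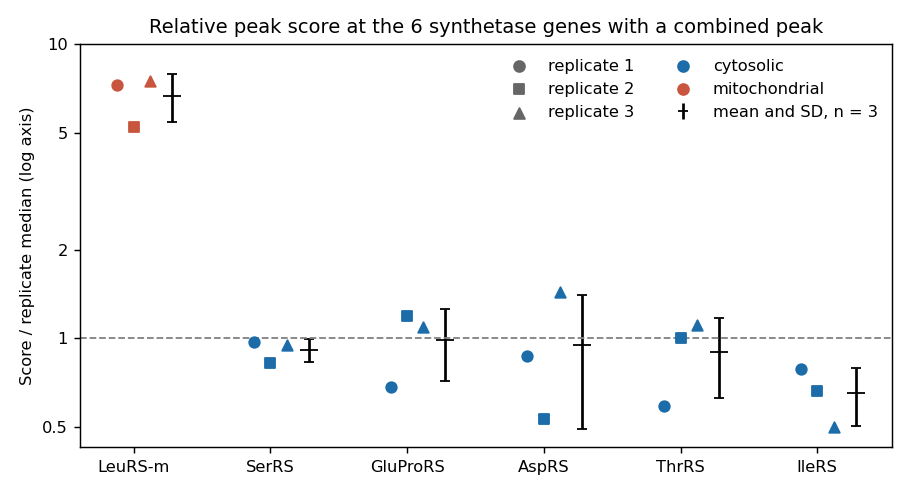
Score of the peak at each of the 6 synthetase genes divided by the replicate's median score over shared combined peaks (log axis), with 1 point per replicate and the mean and SD (n = 3) beside them. LeuRS-m lies between 5.24 and 7.48, and all 15 values of the other genes lie between 0.498 and 1.44, around the dashed line at 1.

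In every one of the 6 cases another gene's start site lay within 500 bp of the same summit, on the opposite strand. Among all 1316 combined summits within 500 bp of a protein-coding TSS, 385 (29.3%) had start sites of 2 or more protein-coding genes in that window, on either strand. That share counts each summit once, so it is not a matching background for a count over genes, which was not computed. The lists alone cannot tell which gene a peak with start sites of several genes belongs to. The LeuRS-m summit lay 20 bp after the LeuRS-m start and 186 bp upstream of that of Dhc64C, the heavy chain of cytoplasmic dynein, the start sites being 166 bp apart. The GluProRS summit was intergenic, 104 bp upstream of GluProRS and 156 bp upstream of AP-1sigma, a small subunit of a clathrin adaptor, with 260 bp between the start sites. The IleRS summit was also intergenic, 133 bp upstream of IleRS and 337 bp upstream of Hem, a subunit of the complex that drives branched actin assembly, with 470 bp between them. In these 3 cases the synthetase gene had the nearer start site.

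At SerRS the start sites of the pair nearest to the summit were 8 bp apart. The summit lay 1 bp after that of SerRS and 9 bp upstream of that of CG17260, so the position does not separate them. The summit was in the 5′ untranslated region of SerRS and also in an intron of CG17260, which begins at chr2L:3037230 and so overlaps SerRS. The neighbour had the nearer start site at AspRS and ThrRS. The AspRS summit lay in an intron of AspRS, 122 bp upstream of its nearest start site, and in the 5′ untranslated region of Nmda1, 68 bp after the start of that gene. The ThrRS summit was intergenic, 239 bp upstream of ThrRS and 227 bp upstream of Patsas. The median summit position of the 6 genes was 113 bp upstream of the start site, within the quartiles of 249 and 56 bp upstream for all 1547 genes with a combined summit, whose median was 142 bp upstream. Measured from the 5′-most start site of each member, the median was -51.5 bp, outside those quartiles, which were taken over the nearest start sites. That median includes AspRS, whose summit lay more than 500 bp from its 5′-most start site. The replicate summits of the 5 weaker peaks were less closely placed than those of LeuRS-m: at SerRS, for example, they lay at -54, -1 and 61 bp.

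**Figure D2:**
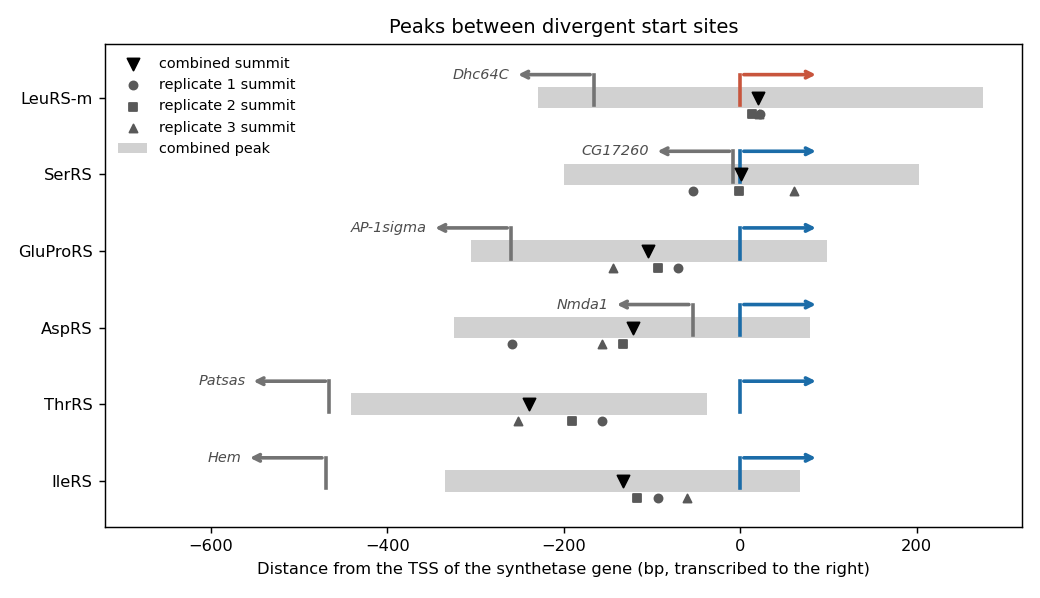
Position in bp, relative to the start site of the synthetase gene at 0 and in its direction of transcription, of the combined peak (grey bar), its summit (black triangle), the replicate summits (small symbols) and the divergent neighbour's start site (grey arrow). All 6 peaks have a divergent start site within 500 bp of the summit, and the 3 replicate summits of LeuRS-m lie within 13 to 23 bp of its start.

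Divergent start sites were counted at all synthetase genes, with or without a peak. A start site on the opposite strand was looked for within 500 bp upstream of the 5′-most start site of each gene. It was found for 21 of 33 members (63.6%), 14 of 18 cytosolic (77.8%) and 7 of 15 mitochondrial (46.7%). The share over all protein-coding genes was 26.4%. Combined summits, at any start site of the gene, were found at 6 of the 21 members with such a neighbour (28.6%). They were found at 18.9% of all protein-coding genes with one. AspRS was counted here through Lfg, 38 bp from its 5′-most start site, while its summit lay at another of its start sites, beside Nmda1. Without one, 0 of 12 members had a combined summit, which allows a share of up to 25%, and 8.29% of all protein-coding genes had one. Over all protein-coding genes the share with a peak was thus higher with a divergent start site. Among the members the difference rests on small counts. The part of the promoter arrangement in the share with a peak was not tested.

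The comparison of cytosolic with mitochondrial genes gave a higher share for the cytosolic ones in every list. In the combined list 5 of 18 cytosolic genes had a summit (27.8%, 95% Wilson interval 12.5 to 50.9%) and 1 of 15 mitochondrial genes (6.67%, 1.19 to 29.8%), and these intervals overlap. The cytosolic count became 2 of 18 (11.1%) where the top peaks of all 3 replicates had to support the peak. It became 3 of 18 (16.7%) where a summit counted only for the gene with the nearest start site. LeuRS-m was kept in both. The share over all protein-coding genes was not computed under either rule. Their share in the unrestricted combined list is not a matching background for these counts. In the pooled list 13 of 18 cytosolic genes had a summit (72.2%, 49.1 to 87.5%), against 3 of 15 mitochondrial genes (20%, 7.05 to 45.2%) and a background of 42.6%. Here the intervals do not overlap, but they cover the counting of genes only, and this 1 list has no spread between replicates. The pooled list is also described as peaks and background, so its lower entries were not read as binding.

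The replicates gave the error of this difference. Among the top peaks of each replicate, 5, 6 and 5 of the 33 members had a summit in replicates 1, 2 and 3 (15.2, 18.2 and 15.2%), against backgrounds of 11.1, 10.6 and 7.93%. The mean share was 16.2 ± 1.75% (SD, n = 3), against 9.89 ± 1.71% of all protein-coding genes. For the cytosolic genes it was 4 of 18 (22.2%) in each replicate, and for the mitochondrial genes 1, 2 and 1 of 15, with a mean of 8.89 ± 3.85%. The equal cytosolic counts were not of the same genes. SerRS and GluProRS were counted in every replicate, while ThrRS was missing in replicate 1, AspRS in replicate 2 and IleRS in replicate 3. The additional mitochondrial gene in replicate 2 was ArgRS-m, at rank 2916. The mitochondrial minus cytosolic difference was -15.6, -8.89 and -15.6 percentage points (mean -13.3 ± 3.85, n = 3), lower for mitochondrial genes in 3 of 3 replicates. Where a summit counted only for the gene with the nearest start site, it was lower in 2 of 3, at -4.44, -15.6 and 1.11 points. The exact two-sided sign-flip permutation test over replicates gave p = 0.25, the smallest value that 3 replicates allow, so this test could not pass the usual threshold.

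Deeper in the lists the replicates parted. Among the top 10000 entries 15, 10 and 6 members had a summit (45.5, 30.3 and 18.2%), against backgrounds of 29.5, 21.0 and 13.1%. In the whole lists the counts were 27, 13 and 6 (81.8, 39.4 and 18.2%), against 49.7, 36.8 and 23.5%. Thus replicate 1 listed most of the mitochondrial genes (11 of 15), replicate 2 listed 4 and replicate 3 only LeuRS-m, while the cytosolic counts were 16, 9 and 5 of 18. The difference was -24.8 ± 5.48 points in the top 10000 entries and -20 ± 4.01 points in the whole lists (n = 3; exact permutation p = 0.25 for each, again the smallest possible). The background shares differed between the replicates in the same order, and the read depth behind the lists is unknown.

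**Figure D3:**
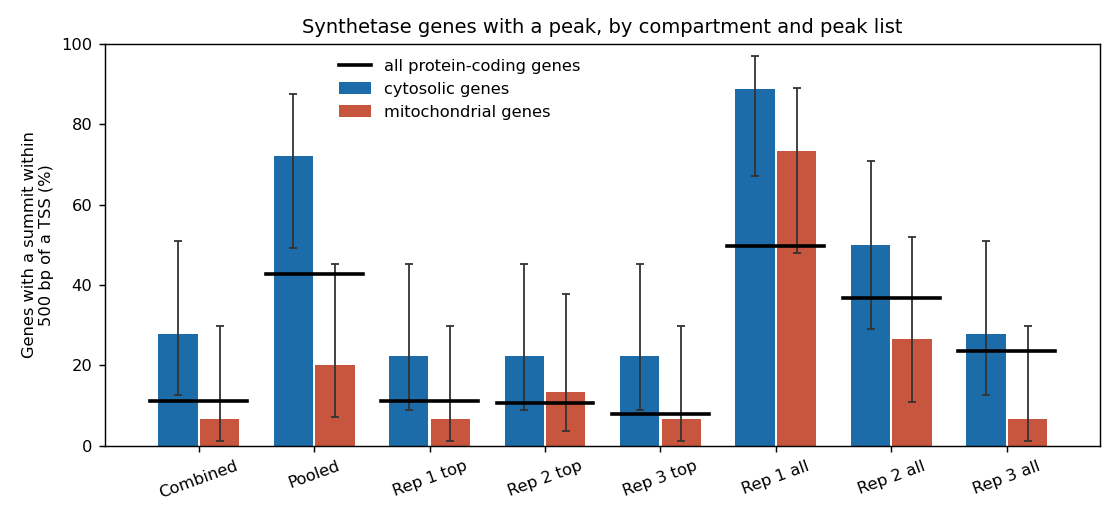
Percentage of the 18 cytosolic (blue) and 15 mitochondrial (red) synthetase genes that had a start site no more than 500 bp from a summit, in each list, with 95% Wilson intervals, where "top" stands for the 2988 highest-scoring entries and "all" for the whole replicate list. Black lines give the share of all protein-coding genes. The cytosolic bar is the higher one in each list. The intervals, which cover the counting of genes only, overlap in all lists but the pooled one.

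The groups also differed in promoter arrangement, and the pooled shares within each arrangement are given beside the difference. Among genes with a divergent start site 11 of 14 cytosolic (78.6%) and 2 of 7 mitochondrial genes (28.6%) had a pooled summit, and 57.2% of all protein-coding genes of that kind did. Among genes without one the counts were 2 of 4 (50%) and 1 of 8 (12.5%), with 37.4% for all protein-coding genes. Cytosolic genes also had more than 1 annotated start site more often (7 of 18, 38.9%) than mitochondrial genes (2 of 15, 13.3%). Among the genes with 1 start site, 7 of 11 cytosolic (63.6%) and 3 of 13 mitochondrial genes (23.1%) had a pooled summit, and 34.2% of all protein-coding genes with 1 start site did. The cytosolic share was the higher one within each of these classes, all of them small. In the combined list the genes with 1 start site held 1 of 11 cytosolic (9.09%) and 1 of 13 mitochondrial genes (7.69%), near the 7.47% of all protein-coding genes with 1 start site. Those with several start sites held 4 of 7 cytosolic and 0 of 2 mitochondrial genes, against 21.1% of all protein-coding genes of that kind.

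For 14 amino acids the members included a gene of each kind. At 8 of them only the cytosolic gene had a pooled summit, at 2 (arginine and leucine) both had one, at 4 (cysteine, tryptophan, tyrosine and valine) neither had one, and at 0 only the mitochondrial gene. GluProRS stands for glutamate and proline in this count. At both arginine and leucine the mitochondrial gene had the better pooled rank: ArgRS-m had rank 5984 and ArgRS 7134, while LeuRS-m had rank 82 and the cytosolic LeuRS rank 20553. LeuRS had an entry in replicate 1 (rank 7867) and in neither of the other replicates. The 5 amino acids with no mitochondrial member were glutamine, glycine, histidine, lysine and threonine. For these the symbols do not say whether the gene without -m also serves the mitochondrion. ThrRS, which had a combined summit, is among them.

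Below the combined list, 10 members had a summit in the pooled list and in 1 or 2 replicate lists, 8 of them cytosolic and 2 mitochondrial (ArgRS-m and PheRS-m). GlyRS, which charges tRNA-Gly, came nearest to the combined list, with pooled rank 3150 and a score of 124 against the lowest combined score of 128. It had ranks 4285 and 5211 in replicates 1 and 2 and no entry in replicate 3. AsnRS followed at pooled rank 4865, with ranks 5485 and 5567 in replicates 1 and 2. No member of this group had an entry in replicate 3, unlike the 6 genes with a combined summit, whose list was itself kept for reproducibility.

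ArgRS-m, at pooled rank 5984, had rank 9710 in replicate 1 and 2916 in replicate 2. AlaRS had pooled rank 6599, with ranks 9042 and 17878 in those replicates. ArgRS, at pooled rank 7134, had ranks 13449 and 3914. HisRS, at pooled rank 10019, was listed in replicate 1 only, at rank 6767. These ranks lie in the part of the lists that mixes peaks with background. A further 12 members had a summit in 1 or 2 replicate lists and none in the pooled list, namely CysRS, TrpRS and ValRS and 9 mitochondrial genes.

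No entry of any list lay within 500 bp of a start site of 5 members, GlnRS, TyrRS, AsnRS-m, GluRS-m and ValRS-m. TyrRS and GluRS-m are adjacent on arm 3L, transcribed in the same direction. In all, 6 members were listed in 3 replicates, 6 in 2 replicates, 16 in 1 replicate and 5 in 0. The matching shares over all protein-coding genes were not computed, for these classes or for the members listed below the combined list. The whole lists of replicates 1, 2 and 3 had a summit at 49.7, 36.8 and 23.5% of all protein-coding genes. These counts are therefore descriptions only.

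**Figure D4:**
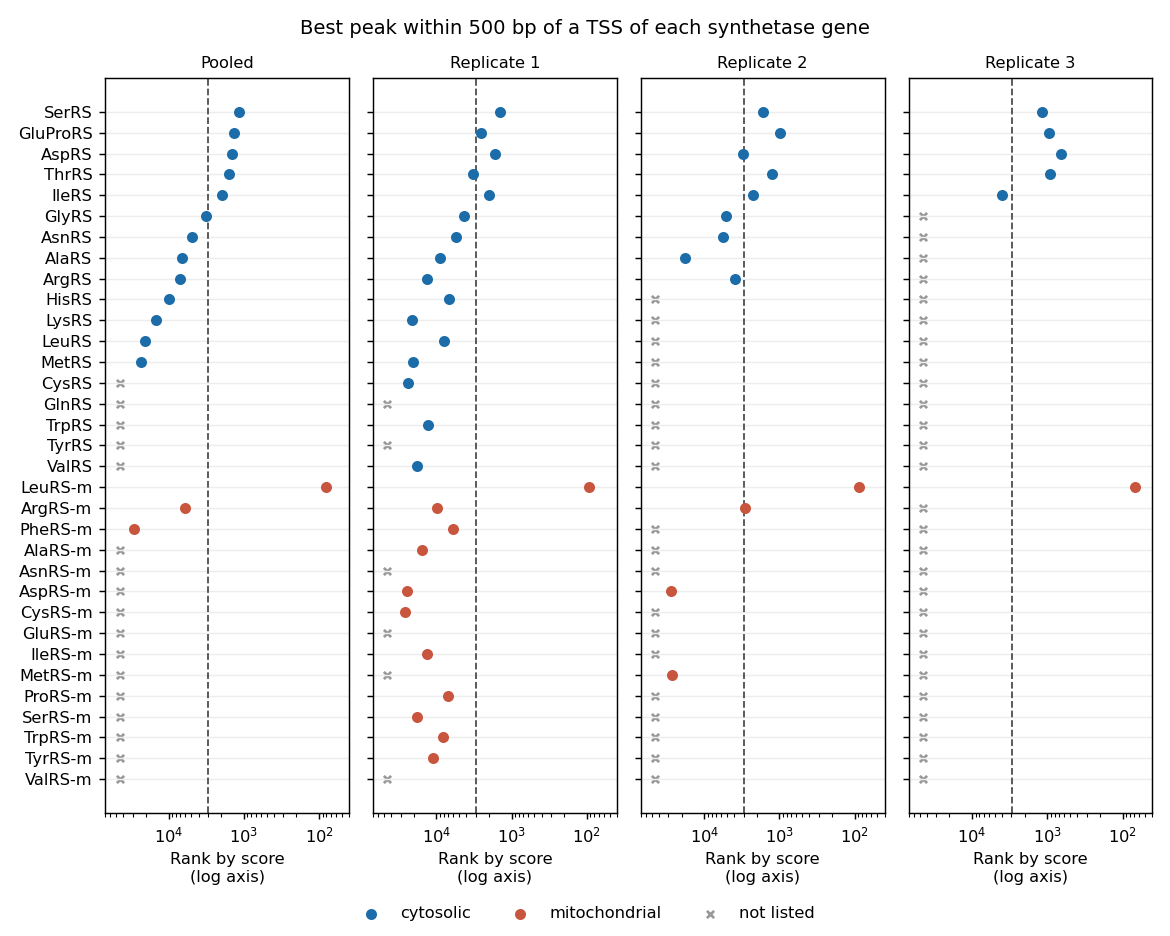
Rank by score (log axis, highest scores to the right) of the best entry within 500 bp of a start site of each of the 33 synthetase genes in the pooled list and the 3 replicate lists, with crosses for genes with no entry and the dashed line at rank 2988. LeuRS-m is at rank 68 to 94 in all 4 panels, and replicate 3 lists 6 members while replicate 1 lists 27.

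Short words were searched on both strands within 50 bp of the summits. CACGTG, the canonical E-box, was present at LeuRS-m and at none of the other 5 summits, at 1.07% of all 2988 combined summits and at 1.52% of the 1316 near a protein-coding TSS, which is the share given second for each word here. It began 24 bp upstream of the LeuRS-m start, 44 bp from the summit, within the 100 bases printed above. CAGCTG, an E-box variant, was likewise present at LeuRS-m only (3.68 and 4.56%), began 10 bp after the start site and 10 bp before the summit, in the 30 bases printed. TATAAA, the TATA box word, was found at SerRS (19.9 and 20.1%), where it occurred at 4 places over both strands. ATCGATA, part of the DRE element, GGTCACA, part of Ohler motif 1, and GAGAG, the GAGA word, were at 0 of the 6 summits, and at 2.51, 1.17 and 9.64% of all combined summits (4.56, 1.82 and 8.13% of those near a TSS). Within 100 bp, IleRS held ATCGATA, 41 bp upstream of its start (4.75 and 8.74%), and CAGCTG (8.33 and 11.0%), and ThrRS held TATAAA (34.1 and 35.9%). A match is a string of letters and was not tested as a binding site.

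The base composition at LeuRS-m also differed from that at the 5 cytosolic genes. Within 50 bp of the summit 43.6% of the bases were G or C at LeuRS-m, and 76.5% of all combined summits had a lower share. The cytosolic genes had 22.8% at SerRS, 24.8% at IleRS, 27.7% at GluProRS and at ThrRS, and 32.7% at AspRS, all below the median of 34.7% over all combined summits. The runs of A and T in the GluProRS, ThrRS and IleRS sequences above show this. SerRS was lowest, with 4.55% of combined summits below it.

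**Figure D5:**
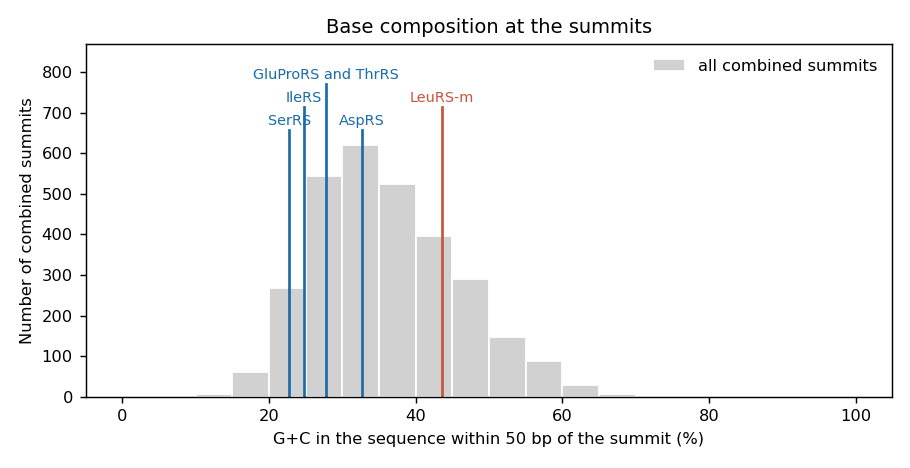
Number of all 2988 combined summits by the percentage of G and C within 50 bp of the summit (grey bars), with vertical lines at the 6 synthetase genes. LeuRS-m, at 43.6%, lies above the median of 34.7%, and the 5 cytosolic genes, at 22.8 to 32.7%, lie below it.

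Other genes that act with the synthetases were taken from a list of 34 symbols, of which 33 were found in the annotation. Combined summits were found at 6 of the 33 (18.2%, against the background of 11.1%) and pooled summits at 17 (51.5%, against 42.6%). The elongation factors, which carry charged tRNAs to the ribosome or move it along, had 3 of 10. Of these eEF1gamma, a subunit of the exchange factor for eEF1A, was the strongest, with rank 265, a summit 28 bp upstream of its start and relative scores of 2.49, 3.19 and 2.62 (mean 2.77 ± 0.376, n = 3). It was thus above the median shared peak in all 3 replicates and below LeuRS-m in all 3.

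The other elongation factor genes had no peak in replicate 3. They were eEF1alpha1, which delivers aminoacyl-tRNAs, with relative scores of 0.590 and 1.77 in replicates 1 and 2, and eEF2, the translocation factor, with 0.926 and 0.552. Of 4 genes of the response to amino acid starvation, 2 had a combined summit and all 4 a pooled one. AsnS, asparagine synthetase, had relative scores of 1.01, 0.856 and 0.524 (mean 0.798 ± 0.25, n = 3), with the summit 422 bp upstream and a start site of chb in the window. Thor, the fly 4E-BP, which restrains cap-dependent initiation, had 0.751 and 0.881 in replicates 1 and 2 and no peak in replicate 3. Its summit lay 33 bp after the start site.

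GatA, a subunit of the mitochondrial amidotransferase that makes glutaminyl-tRNA from misacylated tRNA, was the 1 gene of 3 in its group with a combined summit, at relative scores of 0.470 and 0.698 in replicates 1 and 2, with no peak in replicate 3 and a start site of P5cr in the window. The companion subunits of the synthetases (alpha-PheRS, beta-PheRS, Slimp and the 3 AIMP scaffold genes) had 0 of 6 combined and 3 of 6 pooled summits. Genes of tRNA processing and modification had 0 of 10 combined and 5 of 10 pooled summits. Of the 6 pathway genes with a combined summit, eEF1gamma and AsnS were thus the ones with a peak in every replicate list. All 6 synthetase genes had one too, as did 2292 of all 2988 combined peaks.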

How the data were processed

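ChIP-seq peak lists of 3 biological replicates of CG10274-GFP embryos were used, with chromatin sonicated to 200 to 800 bp, per the labels. The authors deposited, in narrowPeak format for dm6, 1 list per replicate, 1 on pooled replicates and 1 that passed IDR (the combined list). The score used (column 7) is the authors' own, as deposited, a positive number with no fixed range, not scaled between lists. The name of the aligner or peak caller is not given in the sources used, the control data set was not analysed here, and the dm3 lists were not used. Scores give no read counts, so depth is unknown, and all intervals cover the counting of genes only. The labels name 1 transgenic line and do not say whether replicates came from separate cages, so p-values measure the spread between these samples only.

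Genes came from BDGP 6.54 (Ensembl release 115) and sequences from RefSeq Release 6. The best-scoring summit within 500 bp of any TSS was taken per gene. A replicate's top peaks are its 2988 highest-scoring entries. Each share has a 95% Wilson interval, and a count of 0 has an upper limit of 3 counts over the number of genes. The sign-flip test was exact over replicates. Scripts were tested on simulated data. Python 3.11.15 with numpy 2.4.6, pandas 2.3.3, scipy 1.17.1, pysam 0.24.0 and matplotlib 3.10.9 was used. Named are all members with a combined summit, the 6 next by pooled score, those with no entry, and pathway genes with a combined summit. LeuRS was named after its values were seen, for its contrast with LeuRS-m. The members, lists, words and tests were chosen with earlier results of these data known. Chosen after seeing these files were counting only the 5′-most TSS, the difference deeper in the lists, and the word CCCTAC (5.89% of combined summits, at 0 of the 6 members). Other alternatives changed the window, the way a summit is given to a gene, replicate support, the scaling of scores and the members.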

Additional observations from a re-analysis of the deposited data

How the results depend on the processing

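With 3 replicates of 1 group the exact sign-flip test could not go below p = 0.25, and the counts of genes are small. The labels give 1 group only, so no groups of samples could be compared. The mitochondrial minus cytosolic difference was taken within each replicate. The mean share of members among replicate top peaks, 16.2%, became 14.1% with a window of 250 bp, 31.3% over the top 10000 entries and 46.5% over the whole lists, and the count of 10 members below the combined list became 6 with 250 bp, since fewer or more entries then qualify by construction. The cytosolic share of 27.8% fell to 11.1% (2 of 18) when peaks had to be supported by the top peaks of all 3 replicates, and likewise with a reciprocal overlap of 50%. These 2 genes, SerRS and GluProRS, and LeuRS-m are the members with such support. Support by the replicates that remained when each was left out in turn gave 12.1% of members (4 of 33) and 16.7% of cytosolic genes in each case, and 6.67% of mitochondrial genes. Leaving each replicate out of the mean gave a share of 15.2 to 16.7% and a difference of -15.6 to -12.2 points. Over the other alternatives the mean difference stayed negative, from -24.8 to -6.30 points. It was smallest, at -6.30 ± 8.49 points (n = 3, exact permutation p = 0.5), when a summit counted only for the gene with the nearest start site, and likewise in the higher-scoring 50% of the top peaks. In each of these the mitochondrial share was lower in 2 of 3 replicates and higher, by 1.11 points, in the other. The nearest-gene assignment gave 12.1% of members (4 of 33) in the combined list, without AspRS and ThrRS. Counting only the 5′-most start site gave 15.2% of members (5 of 33) and 22.2% of cytosolic genes (4 of 18), without AspRS. For these assignments, and for support by the replicates, the share over all protein-coding genes was not computed. Without replicate 1 the mean relative scores of GluProRS (1.14) and ThrRS (1.05), and without replicate 2 that of AspRS (1.16), lay above 1, as did 4 of the 5 cytosolic means under scaling by each replicate's own top peaks. The median summit position was -51.5 bp from the 5′-most start sites.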
